A study of Mus musculus with 8 samples.

Results

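The genes described here are 10 genes of class II antigen presentation and costimulation, H2-Aa, H2-Ab1, H2-Eb1, Cd74, H2-DMa, H2-DMb1, H2-Oa, Ciita, Cd80 and Cd86, of the 54532 genes in the count table. They were chosen by name and found by Ensembl identifier, and all 10 passed the filter on low counts that left 17291 genes for testing. They were read by RNA sequencing in spinal cord microglia, the tissue macrophages of brain and cord, of 8 female mice. Of these mice, 4 were wild type (WT) and 4 carried the knock-in labelled Cd11b-P2X4mCherryIN (KI), whose name joins CD11b, a myeloid surface protein, to the ATP-gated channel P2X4 and the fluorescent protein mCherry. All 8 mice were of 1 sex, and the labels give no age, strain, treatment or disease for them. Living CD11b+ cells with low CD45 and no Ly6C were sorted. Each library is 1 mouse and is named below by its group and mouse number. Libraries held between 45167483 and 54049801 reads on genes. The 10 microglial marker genes checked, P2ry12 and Tmem119 among them, had reads in all 8 libraries, and their summed level was 33796 to 38619 CPM in WT and 32417 to 36612 in KI. CPM are counts per megaread of the library, with library sizes scaled by TMM, a method that aligns most genes between libraries. P2rx4, the gene of the channel in the knock-in, averaged 792 ± 43.45 CPM against 858 ± 62.7 in KI (edgeR log2 fold change 0.11, adjusted p = 0.735), and a count over the whole gene does not show the genotype.

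Class II molecules are pairs of an alpha and a beta chain that carry peptides from the endosome to the cell surface, where CD4+ T cells read them. H2-Aa and H2-Ab1 encode the chains of I-A, and H2-Eb1 encodes the beta chain of I-E. Cd74 encodes the invariant chain, which fills the groove until proteases remove it. H2-DMa and H2-DMb1 encode the DM heterodimer that exchanges the last fragment of the invariant chain for peptide, and H2-Oa encodes a chain of DO, which restrains DM. Ciita encodes the transactivator that is recruited to class II promoters by factors bound at the conserved X and Y boxes. Cd80 and Cd86 encode the B7 ligands of CD28 and CTLA-4, the second signal for a T cell. Resting microglia are known to carry little class II on their surface.

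The promoters of H2-Aa, H2-Eb1, H2-DMb1 and H2-Oa hold a pair of words in common. RefSeq promoter entries (GRCm38.p6, the build also called mm10) were matched by symbol for 6 of the 10 genes. Shown are the 130 bases just before the RefSeq start site, 5′ to 3′ on the strand of the gene, for H2-Aa (chr17:34287824-34287953, minus strand), H2-Eb1 (chr17:34305737-34305866, plus strand), H2-DMb1 (chr17:34153061-34153190, plus strand) and H2-Oa (chr17:34092249-34092378, plus strand), with Cd80 (chr16:38458803-38458932, plus strand) for contrast. Capitals mark CNNGNAAC, letters found in the X box, and TGATTGG, the core of the Y box.
H2-Aa: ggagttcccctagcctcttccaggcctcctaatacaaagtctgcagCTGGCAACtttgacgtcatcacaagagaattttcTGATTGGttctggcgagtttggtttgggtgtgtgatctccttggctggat
H2-Eb1: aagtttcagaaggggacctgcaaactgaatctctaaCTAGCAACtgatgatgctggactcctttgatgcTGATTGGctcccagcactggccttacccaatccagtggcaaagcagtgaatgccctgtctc
H2-DMb1: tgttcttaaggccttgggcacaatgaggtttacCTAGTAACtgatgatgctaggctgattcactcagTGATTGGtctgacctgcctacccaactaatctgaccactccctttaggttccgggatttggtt
H2-Oa: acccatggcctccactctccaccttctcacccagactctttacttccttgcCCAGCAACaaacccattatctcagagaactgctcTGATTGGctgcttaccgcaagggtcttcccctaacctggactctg
Cd80: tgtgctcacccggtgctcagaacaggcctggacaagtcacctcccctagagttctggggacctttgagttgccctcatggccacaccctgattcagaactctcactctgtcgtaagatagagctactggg
The CNNGNAAC letters were CTGGCAAC in H2-Aa, CTAGCAAC in H2-Eb1, CTAGTAAC in H2-DMb1 and CCAGCAAC in H2-Oa. In H2-Aa they began 84 bases before the start site and TGATTGG began 50 bases before it. The gap between the marked words was 26 bases in H2-Aa, H2-DMb1 and H2-Oa and 25 bases in H2-Eb1. Both motifs were written after these promoters had been read. Of all 32851 promoter entries, searched from 250 bases before to 50 after the start on both strands, 7.82% held TGATTGG, 39.1% held CNNGNAAC and 0.244% held the pair in this order with a gap of 10 to 40 bases. The words do not overlap each other in the pair. The Cd80 entry and both entries of H2-DMa held no such pair. None of the 7 entries starts at the first base of the gene model used for counting. The H2-DMa entries start at 34122832 and 34125518, far before its counted model at 34135182. The Cd80 entry starts at 38458933, well inside its counted model from 38455561. The bases just before the counted models of H2-DMa and Cd80 were therefore not searched. The pair of words stood before H2-Aa and H2-Eb1, whose levels varied widely between libraries, and before H2-DMb1 and H2-Oa, whose levels did not. No entry was matched for H2-Ab1, Cd74, Ciita and Cd86. Whether the words relate to the spread between libraries was not tested. A match describes letters and not a bound factor.

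Per length, the class II genes ran from abundant to near the limit of detection. Levels between genes are compared as RPKM, the scaled CPM per kilobase of exon. H2-DMa averaged 299.99 ± 14.1 RPKM in WT against 309.7 ± 20.8 in KI (all ± are SD, n = 4), and H2-DMb1 averaged 201 ± 4.29 and 202 ± 5.67. Cd86 stood as high, at 297 ± 19.2 and 331 ± 9.2 RPKM. The invariant chain gene Cd74 averaged 135 ± 45.1 and 214 ± 84.8 RPKM. H2-Ab1 averaged 26.1 ± 9.17 and 44.7 ± 20.9 RPKM, H2-Oa 27.1 ± 2.6 and 29.8 ± 1.48, and Cd80 18.4 ± 3.05 and 19.2 ± 1.02. H2-Aa averaged only 3.05 ± 3.37 and 6.54 ± 6.06 RPKM, and H2-Eb1 3.86 ± 3.02 and 6.27 ± 6.17. Ciita was near the limit of detection, at 0.0360 ± 0.0267 and 0.0448 ± 0.0819 RPKM. Over the 8 libraries, the order from high to low was Cd86 and H2-DMa, H2-DMb1, Cd74, H2-Ab1, H2-Oa, Cd80, H2-Eb1 and H2-Aa, and Ciita. The ranges over libraries overlapped between the neighbours Cd86 and H2-DMa, H2-DMb1 and Cd74, H2-Ab1 and H2-Oa, and H2-Eb1 and H2-Aa, and not between the others. The chains of I-A were unequal: the RPKM of H2-Ab1 was 4.47 times that of H2-Aa in KI 528 and 27.5 times in WT 527, with the other libraries between. By contrast, the RPKM of Cd74 was 4.43 to 5.92 times that of H2-Ab1 in the 8 libraries, and that of H2-DMa was 1.42 to 1.65 times that of H2-DMb1.

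**Figure D1:**
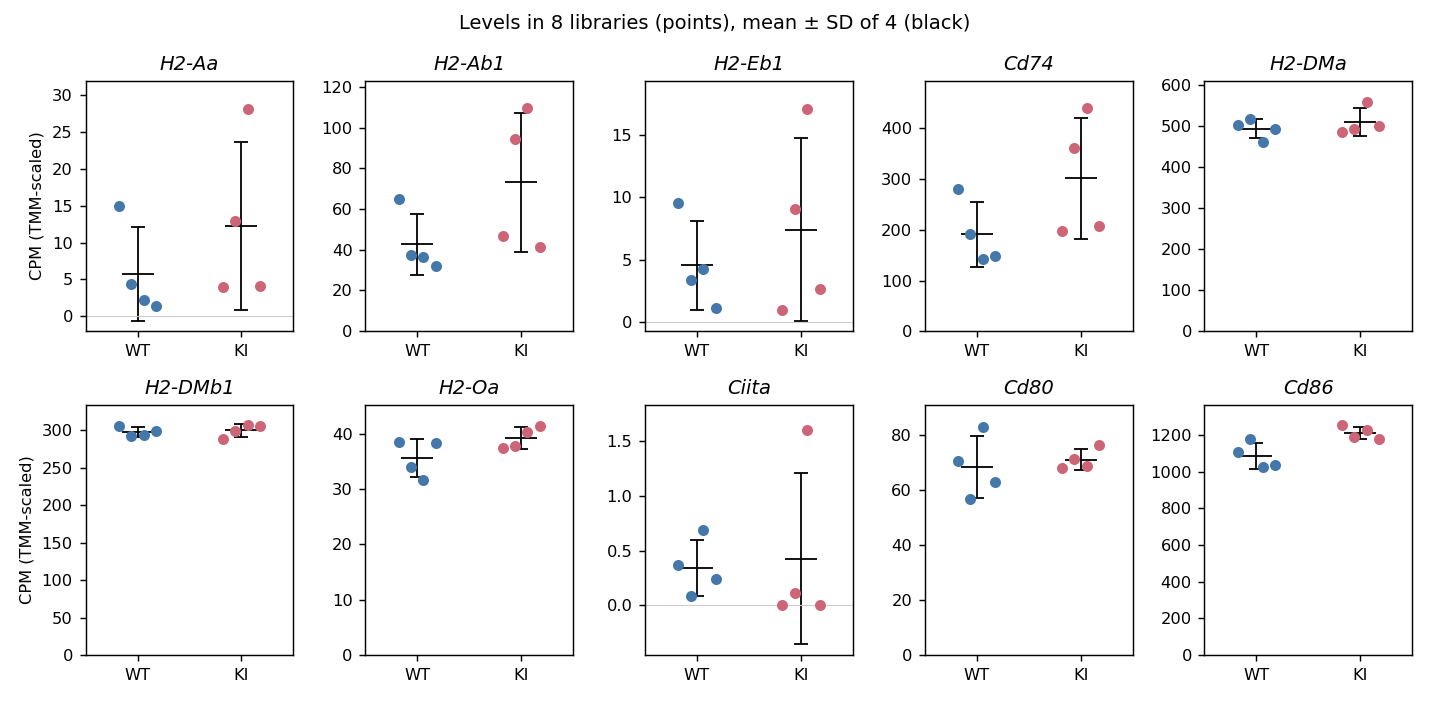
CPM of the 10 genes on linear axes that include 0, each point 1 library, with the mean and SD of 4 libraries per group in black. H2-Aa, H2-Ab1, H2-Eb1 and Cd74 spread widely within both groups, while H2-DMb1 stayed between 289 and 307 CPM in all 8 libraries.

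The genes of the class II chains and of the invariant chain varied widely from mouse to mouse in both groups. H2-Aa (ENSMUSG00000036594, mm10 chromosome 17, 34282744 to 34287827, minus strand) stood at 15.0 CPM in WT 503, 4.35 in WT 504, 2.21 in WT 506 and 1.33 in WT 527, and at 3.93 in KI 513, 12.9 in KI 526, 28.1 in KI 528 and 4.08 in KI 549. WT 503, KI 526 and KI 528 were high and the groups overlapped, with 67 reads in the lowest library and 1267 in the highest. H2-Ab1 (ENSMUSG00000073421, chromosome 17, 34263209 to 34269418, plus strand) stood at 64.9, 37.4, 36.4 and 31.9 CPM in WT 503, 504, 506 and 527 and at 46.6, 94.6, 109.7 and 41.5 in KI 513, 526, 528 and 549. The same 3 libraries were the highest for this beta chain, and WT 503 lay above KI 513 and KI 549. In the same order of libraries, H2-Eb1 (ENSMUSG00000060586, chromosome 17, 34305877 to 34316199, plus strand) was read at 9.55, 3.35, 4.27 and 1.11 CPM in WT and at 0.960, 9.05, 17.0 and 2.61 in KI. The lowest library for this I-E chain was KI 513, below every WT library. Cd74 (ENSMUSG00000024610, chromosome 18, 60803848 to 60812646, plus strand) was read at 281, 191, 143 and 149 CPM in WT and at 197, 361, 441 and 207 in KI. WT 503, KI 526 and KI 528 were again the highest for the invariant chain, and the groups overlapped. The highest library held 21.2 times the CPM of the lowest for H2-Aa, 17.8 times for H2-Eb1, 3.43 times for H2-Ab1 and 3.08 times for Cd74. The spread within groups was wide for genes of this level. The pooled SD of log2(CPM + 0.5) within a group was 1.32 for H2-Aa, 1.37 for H2-Eb1, 0.59 for H2-Ab1 and 0.52 for Cd74. Among genes whose mean CPM was within 2-fold, this SD was smaller than that of H2-Aa in 99.9% of 3378 genes, of H2-Eb1 in 99.8% of 3101, of H2-Ab1 in 99.5% of 3810 and of Cd74 in 99.3% of 1366. In bulk libraries, fewer cells of a type and less RNA per cell cannot be told apart.

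**Figure D2:**
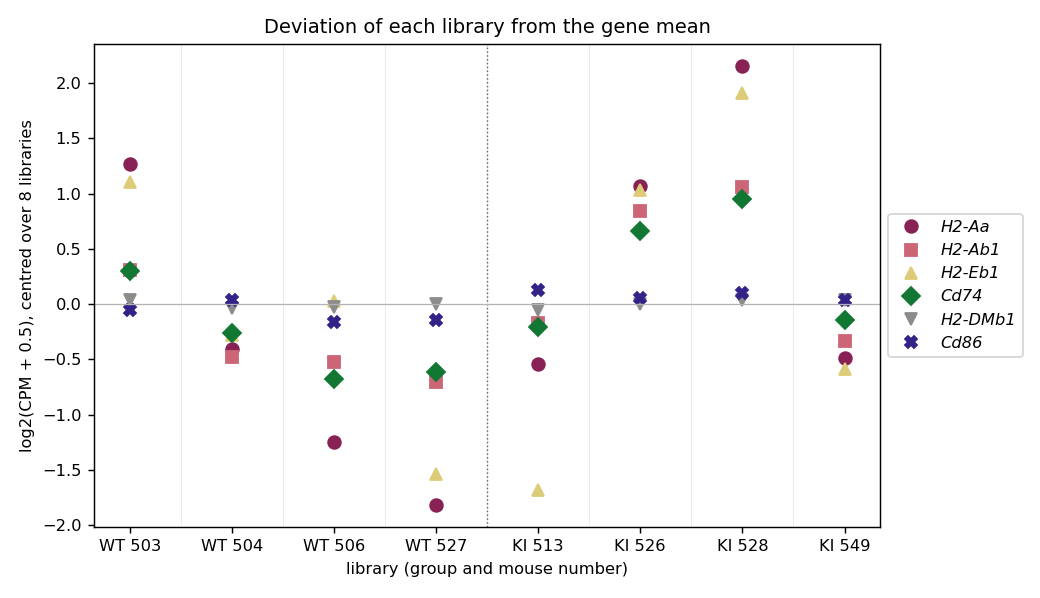
Log2(CPM + 0.5) of 6 genes in each library, centred on the mean of the gene over the 8 libraries. The 4 genes of the class II and invariant chains lie above 0 in WT 503, KI 526 and KI 528, while H2-DMb1 and Cd86 stay close to 0 in all libraries.

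KI and WT were then compared. By the edgeR quasi-likelihood test, 0 of the 10 genes had an adjusted p under 0.05, and 0 of the 17291 tested genes did (0%). At an unadjusted p under 0.05 were 3 of the 10, H2-Ab1, Cd74 and Cd86, all higher in KI, where 7.79% of all tested genes reached it and 3.23% did so on the higher side. DESeq2 called none of the 9 to which it gave an adjusted p, all but Ciita, against 1.27% of the genes it tested. All 10 fold changes were above 0, as were 50.1% of those tested, and their median log2 fold change was 0.23. The 10 genes are not independent of each other. The log2 fold change of H2-Ab1 was 0.78 (SE 0.33, 95% interval 0.03 to 1.52) and the edgeR adjusted p was 0.629. Cd74 had a log2 fold change of 0.66 (SE 0.29, 95% interval 0.02 to 1.30) and an adjusted p of 0.634 in the same edgeR fit. For H2-Aa it was 1.10 (SE 0.81, interval −0.71 to 2.91, edgeR adjusted p = 0.811), and for H2-Eb1 0.70 (SE 0.82, interval −1.12 to 2.51, edgeR adjusted p = 0.903). Exact permutation tests on the log2 CPM of 4 against 4 libraries, 2-sided and with a smallest possible p of 0.0286, gave 0.171 for H2-Ab1, 0.143 for Cd74, 0.314 for H2-Aa and 0.771 for H2-Eb1. These values moved with single libraries. Without KI 528 the log2 fold change was 0.51 for H2-Ab1, 0.42 for Cd74, 0.29 for H2-Aa and −0.12 for H2-Eb1. Without WT 503 it was 1.05, 0.90, 2.22 and 1.35. The unadjusted p of H2-Ab1 and Cd74 also missed 0.05 without WT 504, WT 506, WT 527, KI 526 or KI 528, with values from 0.0801 to 0.161 (edgeR).

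**Figure D3:**
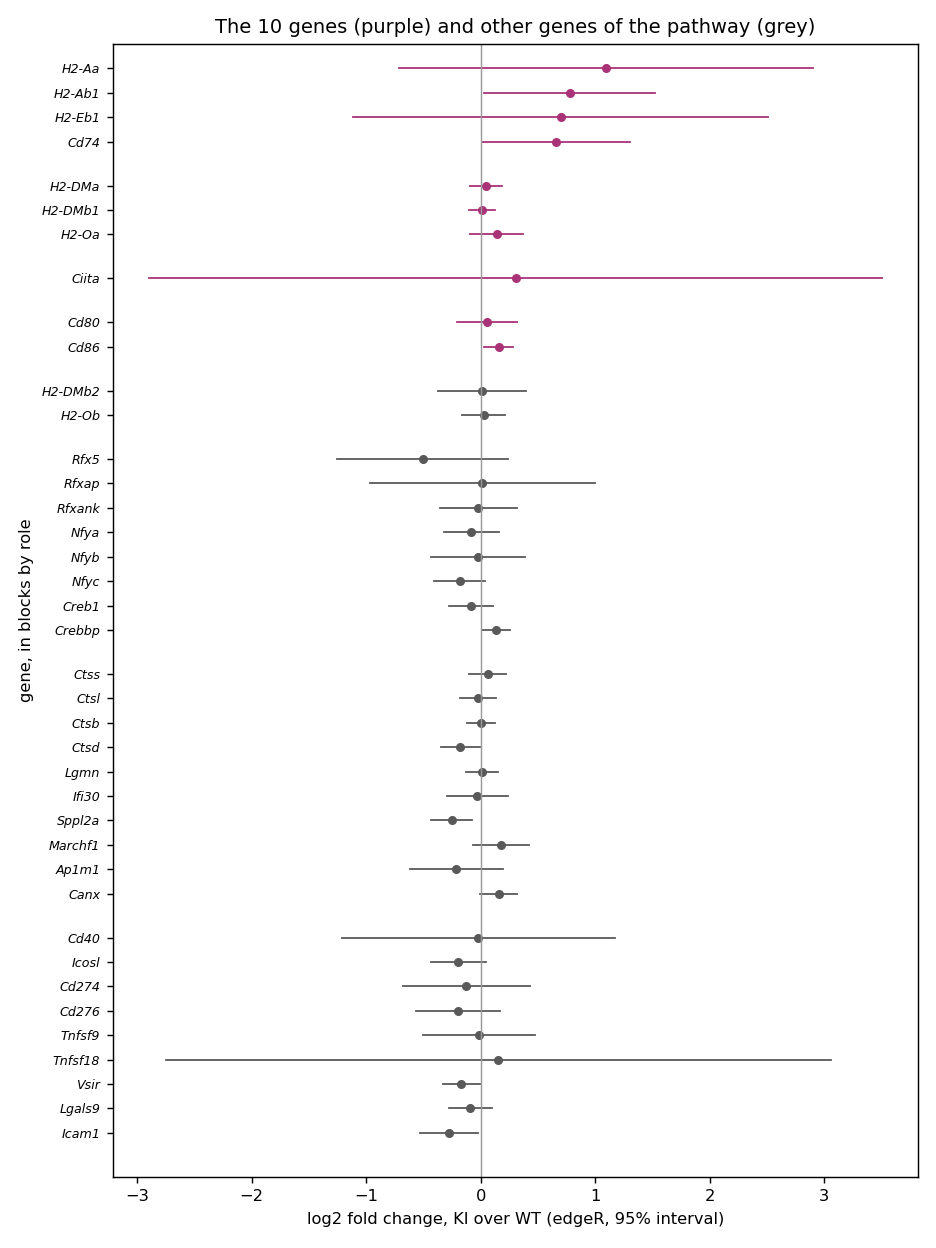
Log2 fold change of KI over WT with its 95% interval from the edgeR fit over all genes, for the 10 genes (purple) and the tested genes of the class II locus, the X and Y box complex, antigen processing and the other costimulatory ligands (grey), in blocks by role. The intervals of H2-Aa, H2-Eb1 and Ciita are wide, and that of H2-DMb1 spans −0.10 to 0.13.

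The peptide-loading genes varied little between mice, and those of DM were abundant. H2-DMa (ENSMUSG00000037649, chromosome 17, 34135182 to 34139101, plus strand) stood at 502, 516, 461 and 491 CPM in WT 503, 504, 506 and 527 and at 484, 491, 559 and 498 in KI 513, 526, 528 and 549. Its highest library was KI 528, and the other 7 lay between 461 and 516 CPM. H2-DMb1 (ENSMUSG00000079547, chromosome 17, 34153072 to 34160230, plus strand) was at 306, 292, 294 and 299.6 CPM in WT and at 289, 299.5, 307 and 306 in KI. Its libraries thus lay within 1.06 times of each other, and only 9 of the 17291 tested genes had a smaller SD within groups (0.04 on the log2 scale). H2-DMb2, a near-identical copy beside it on chromosome 17, averaged 21.9 ± 3.58 CPM in WT against 22 ± 4.31 in KI, and reads could be placed on either copy. H2-Oa (ENSMUSG00000024334, chromosome 17, 34092340 to 34095234, plus strand) was at 38.5, 33.9, 31.5 and 38.3 CPM in WT and at 37.4, 37.7, 40.3 and 41.4 in KI. WT 503 and WT 527 overlapped the KI libraries. H2-Oa shares 200 of its 1314 exon bases with BC051537 on the opposite strand, and the counts do not use strand. The log2 fold changes were 0.05 for H2-DMa (95% interval −0.10 to 0.19), 0.01 for H2-DMb1 (−0.10 to 0.13) and 0.14 for H2-Oa (−0.09 to 0.37), with edgeR adjusted p of 0.930, 0.982 and 0.809. For H2-DMa the sign turned without KI 528 (−0.0022). H2-Ob, whose product pairs with that of H2-Oa in DO, stood at 151 ± 11.4 CPM against 153 ± 14.3 in KI (edgeR log2 fold change 0.03, adjusted p = 0.974). H2-Ea-ps and H2-Eb2, the other class II genes listed for the locus, did not pass the filter, at 0.0107 ± 0.0214 and 0.0204 ± 0.0237 CPM and at 0.0504 ± 0.0530 and 0.0307 ± 0.0123 CPM.

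Reads of the transactivator gene were few. Ciita (ENSMUSG00000022504, chromosome 16, 10480059 to 10528418, plus strand) held 20, 4, 34 and 12 reads in WT 503, 504, 506 and 527 and 0, 6, 72 and 0 in KI 513, 526, 528 and 549. KI 528 was the highest and 2 KI libraries had no read. If reads were counted independently, 0 reads would allow up to 3, or 0.0670 CPM in KI 513 and 0.0556 in KI 549. A pair may be counted once per read, so RNA fragments may be fewer than reads and this limit may be too low. WT 506 held more Ciita reads than WT 503 and KI 526, while its H2-Ab1 and Cd74 levels were below theirs. Ciita shares 329 of its 9535 exon bases with Dexi on the opposite strand. The edgeR log2 fold change of Ciita was 0.31 (SE 1.44, 95% interval −2.89 to 3.5, adjusted p = 0.981), and without KI 528 it was −3.08. Genes of the X and Y box complex were measured above that level. Of the 8 listed, all tested, 1 reached an unadjusted p under 0.05 on the higher side and 0 on the lower (3.23% and 4.56% of all tested genes), and 0 passed after adjustment. This was the coactivator gene Crebbp, with 474 ± 19.2 CPM in WT against 521 ± 19.6 in KI (edgeR log2 fold change 0.14, adjusted p = 0.604). Nfyc, a subunit of the Y box factor NF-Y, averaged 30.3 ± 1.45 CPM against 26.7 ± 0.601 in KI (edgeR log2 fold change −0.18, adjusted p = 0.717), and Rfx5 of the X box complex 9.95 ± 3.51 against 7.0 ± 2.52 (−0.51, adjusted p = 0.786). Of 8 genes that carry the interferon gamma signal towards Ciita, 0 reached an unadjusted p under 0.05 in the edgeR fit. Jak2, a kinase of that receptor, averaged 21.1 ± 5.15 and 26.5 ± 2.45 CPM, and the receptor gene Ifngr2 540.1 ± 10.2 and 576 ± 41.4.

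Of the costimulatory genes, Cd86 was the one whose groups did not overlap. Cd86 (ENSMUSG00000022901, chromosome 16, 36603869 to 36666081, minus strand) was read at 1109, 1178, 1027 and 1037 CPM in WT 503, 504, 506 and 527 and at 1253, 1190, 1229 and 1181 in KI 513, 526, 528 and 549. All 4 KI libraries lay above all 4 WT libraries, though KI 549 exceeded WT 504 by little. The groups did not overlap in 1 of the 10 genes and in 4.94% of all tested genes, 2.34% with KI higher. Cd86 averaged 1088 ± 70.4 CPM in WT against 1213 ± 33.7 in KI, a log2 fold change of 0.16 (SE 0.06, 95% interval 0.03 to 0.28). It did not pass after adjustment (edgeR unadjusted p = 0.0188, adjusted p = 0.573), and the exact permutation p was 0.0286, the smallest that 4 against 4 can give. Its unadjusted p was 0.0532 without WT 506, 0.0570 without WT 527 and 0.0578 without KI 513 (edgeR). Cd80 (ENSMUSG00000075122, chromosome 16, 38455561 to 38496335, plus strand) was at 70.4, 56.7, 82.9 and 62.7 CPM in WT and at 67.8, 71.2, 68.6 and 76.1 in KI. The WT libraries held both the lowest and the highest level of this second B7 gene. The edgeR log2 fold change of Cd80 was 0.06 (SE 0.12, 95% interval −0.20 to 0.32, adjusted p = 0.956), and −0.02 without WT 504. Per length, Cd86 was 12.5 to 21 times as high as Cd80 in the 8 libraries. Of 12 other listed costimulatory and checkpoint ligands, 9 were tested. Of these, 1 had an edgeR log2 fold change above 0, against 50.1% of all tested genes. An unadjusted p under 0.05 was reached by 0 on the higher side and 2 on the lower, against 3.23% and 4.56% of all tested genes. These were Icam1, an adhesion ligand (126 ± 9.88 against 104 ± 15.9 CPM, edgeR log2 fold change −0.28, adjusted p = 0.604), and Vsir, the checkpoint gene of VISTA (1200.4 ± 41.2 against 1067 ± 111, −0.17, adjusted p = 0.625). Icosl, the ligand of ICOS, averaged 167 ± 19.3 and 146 ± 17.6 CPM. Cd40 was low, at 0.965 ± 0.503 and 0.952 ± 0.261 CPM, and Cd70 had no read in the 8 libraries.

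Antigen-processing genes showed no common direction. Of 10 listed, all tested, 5 had a log2 fold change above 0, against 50.1% of all tested genes. An unadjusted p under 0.05 was reached by 0 on the higher side and 2 on the lower, against 3.23% and 4.56%. Sppl2a, the membrane protease that clears the last stub of the invariant chain, averaged 213 ± 9.57 CPM in WT against 179 ± 17.9 in KI with no overlap, as for 4.94% of all tested genes (edgeR log2 fold change −0.25, unadjusted p = 0.00925, adjusted p = 0.534). Ctsd, a lysosomal protease, averaged 2348 ± 112 CPM against 2075 ± 218 (−0.18, edgeR adjusted p = 0.622), and the chaperone gene Canx 2629.9 ± 211 against 2934 ± 234 (0.16, adjusted p = 0.656). Ctss, the cathepsin that trims the invariant chain, stood at 7358 ± 404 and 7670 ± 816 CPM, and March1 (Marchf1), the ligase that removes class II from the surface, at 609 ± 34.8 and 688 ± 125.

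Whether the class II genes moved together over libraries, and apart from Cd86, was examined in all 45 pairs of the 10 genes. Pearson's r and Spearman's rho were taken over log2(CPM + 0.5) of the 8 libraries, with 2-sided exact permutation p and adjustment over the 45 pairs. By Pearson's r 3 pairs passed after adjustment, all among H2-Aa, H2-Ab1 and Cd74, and by Spearman's rho 0 passed. H2-Ab1 and Cd74 had r = 0.98 (exact permutation p = 0.000174, adjusted 0.00781) and rho = 0.95 (exact permutation p = 0.00114, adjusted 0.0513). Without KI 526 and KI 528, the libraries farthest from the median of H2-Ab1, r was 0.92. H2-Aa and Cd74 had r = 0.97 (exact permutation p = 0.00057, adjusted 0.0104) and rho = 0.88 (exact permutation p = 0.00724, adjusted 0.109). H2-Aa and H2-Ab1 had r = 0.94 (exact permutation p = 0.000694, adjusted 0.0104) and rho = 0.88, with the same p for rho. Without WT 503 and KI 528, the libraries farthest from the median of H2-Aa, r was 0.96 with Cd74 and 0.93 with H2-Ab1. H2-Eb1 followed less closely, with r = 0.87 to H2-Aa, 0.83 to H2-Ab1 and 0.81 to Cd74 (exact permutation p = 0.00608, 0.0136 and 0.0169, adjusted 0.0684, 0.123 and 0.127), and rho = 0.81, 0.64 and 0.62 (exact permutation p = 0.0218, 0.0962 and 0.115, adjusted 0.163, 0.333 and 0.370). With the 2 farthest libraries left out these r were 0.70, 0.59 and 0.79. With each group's mean removed, r among the 4 genes ran from 0.90 to 0.97, so the pairs moved together within the groups. Within a group of 4 no r is given. WT 503, KI 526 and KI 528 stood above the other 5 libraries in all 4 genes, and 5 libraries are too few for r of their own. These calls rested on KI 528: without it 0 of the 45 pairs passed, with adjusted p from 0.0625 to 0.104 for the 3 pairs, whose r over 7 libraries was 0.91 to 0.96.

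Of the 4 pairs of Cd86 with these genes, 0 passed. Its r was 0.56 to H2-Aa, 0.54 to H2-Ab1, 0.17 to H2-Eb1 and 0.61 to Cd74 (exact permutation p = 0.157, 0.166, 0.677 and 0.106, adjusted 0.382, 0.382, 0.824 and 0.382). Its rho was 0.45, 0.71, −0.02 and 0.67 (exact permutation p = 0.267, 0.0576, 0.977 and 0.0831, adjusted 0.539, 0.324, 0.990 and 0.333). With group means removed these r ran from 0.09 to 0.39. With each of the 8 libraries left out in turn they ran from −0.14 to 0.78. With the 2 libraries farthest from the median of the other gene of the pair left out, r of Cd86 was 0.69 to H2-Aa and 0.35 to H2-Ab1. It was 0.36 to H2-Eb1 and 0.50 to Cd74. Cd80 had r from −0.01 to 0.21 with the 4 genes, Ciita from 0.39 to 0.66, and the 3 loading genes from 0.14 to 0.71, and 0 of these 20 pairs passed after adjustment. Cd86 spanned 1.22 times from the lowest to the highest library, against 3.08 times or more for each of H2-Aa, H2-Ab1, H2-Eb1 and Cd74. Whether the r of Cd86 is lower than the r among the chain genes was not tested.

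**Figure D4:**
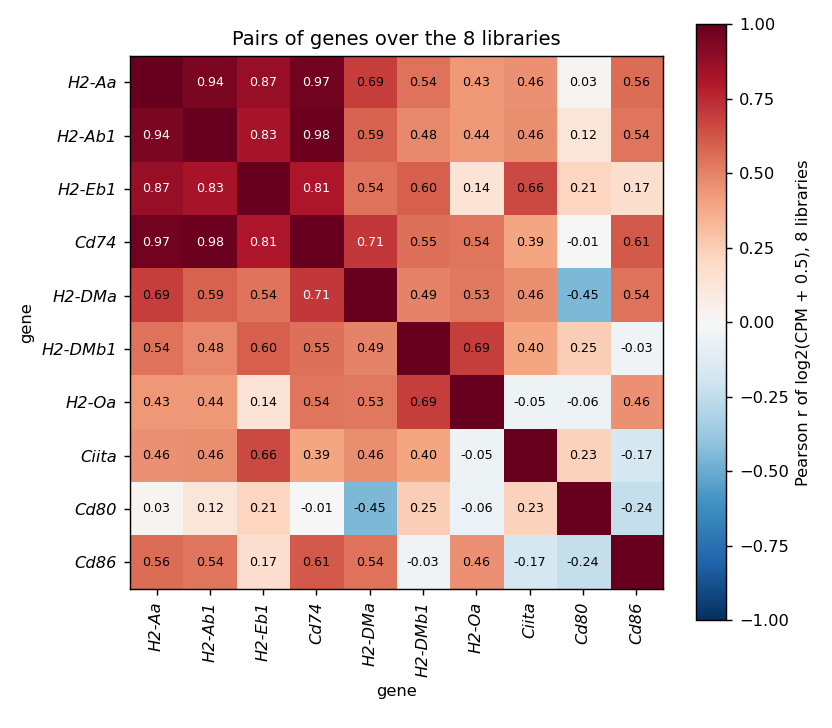
Pearson's r of log2(CPM + 0.5) over 8 libraries for each pair of the 10 genes, red above 0 and blue below. The block of H2-Aa, H2-Ab1, H2-Eb1 and Cd74 holds r from 0.81 to 0.98. With these 4 genes, r was 0.14 to 0.71 for H2-DMa, H2-DMb1 and H2-Oa and 0.39 to 0.66 for Ciita. It was 0.17 to 0.61 for Cd86 and −0.01 to 0.21 for Cd80.

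**Figure D5:**
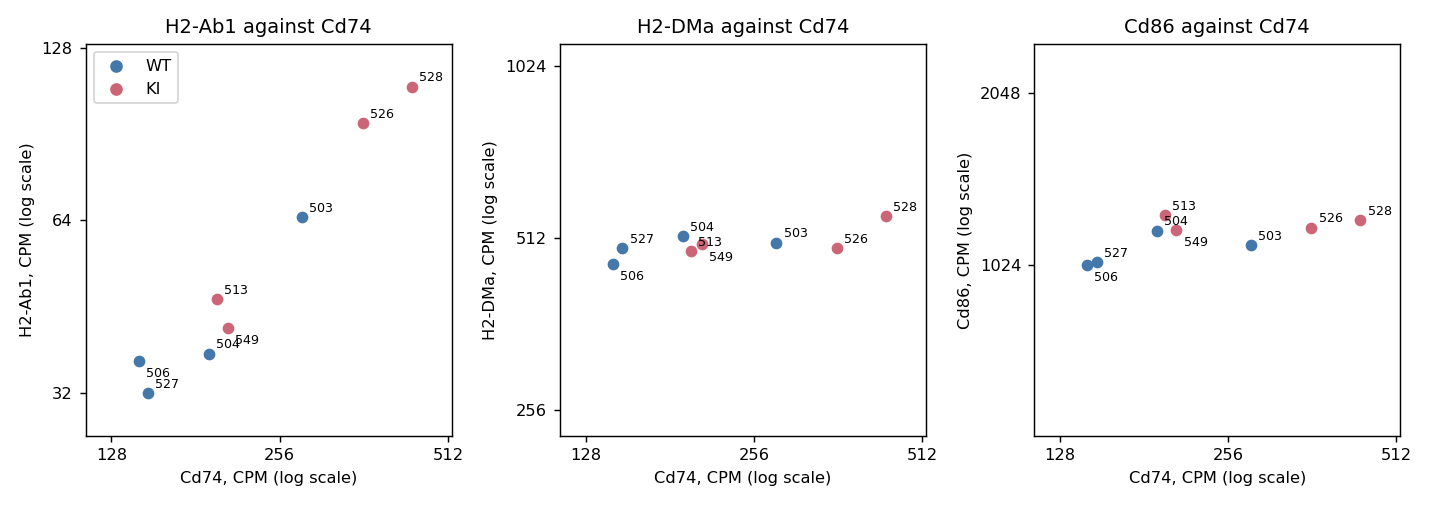
CPM of H2-Ab1, H2-DMa and Cd86 against Cd74 in the 8 libraries, on log axes of equal vertical span, each point labelled by mouse number. H2-Ab1 is higher where Cd74 is higher, whereas H2-DMa and Cd86 stay nearly level.

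Of 10161 other genes averaging 5 CPM or more, the 8 most like the mean profile of H2-Aa, H2-Ab1, H2-Eb1 and Cd74 had r of 0.93 to 0.95 over the 8 libraries. They were Mrps14, Gm10146, Snw1, Gm9794, Cyp4f18, Polr2j, Srsf1 and Vdac2, as a description with no test. Picked as the highest of 10161 values over only 8 libraries, these r are high by selection, as are those for Cd86 below. The libraries also share depth and scaling across genes. Cyp4f18, a cytochrome P450, spanned 18.2 CPM in WT 527 to 52.2 in KI 528, while Mrps14, a mitochondrial ribosomal protein, spanned only 119 in WT 527 to 153 in KI 526. Most like Cd86 were Glns-ps1, Zfp637, Mt1, Dync1i2, Mphosph8, Actr2, Fgl2 and Csnk2a1, with r of 0.95 to 0.97. Fgl2 stood at 111, 138, 76.3 and 77.3 CPM in WT 503, 504, 506 and 527 and at 154, 140, 132 and 109.5 in KI 513, 526, 528 and 549.

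Markers of other cells, several of which carry class II, were read in the same libraries. The gate on CD11b+ cells with low CD45 and no Ly6C is set against Ly6C+ monocytes, cells high in CD45, and B and T cells without CD11b. Of 10 markers of border-associated macrophages, 10 had reads, and the sum of the list was 149.8 to 167 CPM in WT and 133 to 156 in KI, most of it Stab1. Without Stab1 the sum was 8.24 to 12.1 CPM in WT and 5.25 to 25.8 in KI, with the highest value in KI 528. The 10 monocyte markers summed to 7.01 to 10.8 CPM in WT and 7.36 to 22.7 in KI, again highest in KI 528. For dendritic cells the list summed to 997 to 1084 CPM in WT and 1033 to 1088 in KI, nearly all Siglech, which microglia also express. Without Siglech it was 15.6 to 24.5 CPM in WT and 17.3 to 28.7 in KI. Cd209a, a dendritic cell lectin, was at 5.65 CPM in KI 528 and 0.0753 in KI 526 and at 0 in the other 6 libraries. The B cell list held 136 to 177 CPM in WT and 159 to 173 in KI, mostly Cd79b and Bank1, and without these 2 genes 2.64 to 5.52 and 1.71 to 6.76. Cd79a was highest in WT 503 (1.5 CPM) and at 0 in WT 504 and KI 513, and Ms4a1 was highest in KI 528 (2.39) and WT 503 (0.951). T and NK cell markers summed to at most 1.74 CPM. Neutrophil markers without Csf3r were at 0.384 to 7.89 CPM in WT and 0.315 to 34.3 in KI, highest in KI 528. KI 528 was thus the highest library for H2-Aa, H2-Ab1, H2-Eb1 and Cd74 and for these sums of other myeloid cells. In KI 526, the second highest for Cd74 and H2-Ab1, the same sums were 8.88 CPM for border-associated macrophages without Stab1, 7.36 for monocytes and 1.32 for neutrophils without Csf3r, all inside the range of WT. In WT 503 they were 12.1, 10.8 and 0.384 CPM. That library was thus the highest of WT for border-associated macrophages and monocytes and the lowest for neutrophils. The B cell list without Cd79b and Bank1 was highest in KI 528 (6.76 CPM), WT 503 (5.52) and KI 526 (3.86), with WT 504 next (3.73). Without Siglech the dendritic cell list was 28.7 CPM in KI 528, 20.4 in WT 503 and 20.3 in KI 526, against 24.5 in WT 527. Astrocyte markers without Slc1a3 were highest in KI 526 (47.2 CPM) and in WT 527 (44.7), the library lowest for H2-Aa and H2-Ab1. The part of such cells in the class II levels was not tested. No marker of these lists was at 0 in all 8 libraries.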

How the data were processed

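Microglia were enriched on Percoll and sorted, RNA came from an RNeasy Plus Mini kit, and NEBNext low-input reagents gave the libraries, per the labels' protocols. The submitters' processing notes name STAR 2.7.5c, SAMtools 1.9, featureCounts 2.0.3 and mm10. The deposited counts, per the file headers, were made by featureCounts over exons with paired input, primary alignments only and no strand option. Deposited FPKM values were used as an alternative, and no tool is given for them in the sources used here. The table also holds 8 columns that match no label here, and these were not used. Symbols were found for 54409 of the 54532 gene identifiers, by matching to GENCODE of the same build.

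KI was compared with WT by the edgeR 4.0.16 quasi-likelihood test (R 4.3.3, TMM scaling, filterByExpr with minimum count 10 and total 15, robust dispersion, Benjamini-Hochberg over 17291 genes, threshold 0.05), tested on simulated counts. Intervals are 95% intervals of that fit and hold the spread between mice. Of the counts from 1 to 9, 68.9% to 70.8% were even, since both reads of a pair can count. The limit of 3 reads covers counting error only and takes reads as independent, so it may be too low. Alternatives were RLE scaling, library totals, no filter, DESeq2 1.42.0, limma-voom 3.58.1, the edgeR likelihood ratio test, limma on log2(FPKM + 1), a pseudocount of 2 in place of 0.5, group means removed, and each library left out. The genes, the lists and the rule for named genes (all 10 genes, up to 3 per pathway list by smallest p, 8 per profile by r) were chosen with earlier results of these data known. Promoter motifs, and sums without markers whose mean reached 20 CPM, were chosen after the values were seen. The values of 1 gene of these lists are not reported here.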

Additional observations from a re-analysis of the deposited data

Results flagged for a closer look

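In groups of 4, a library was singled out when its gap to the nearest of the others passed Dixon's 95% critical value, as a share of the group's range, which chance gives in about 1 in 20 groups. Of 40 groups examined (10 genes and 10 marker lists in WT and KI), 4 had such a library. WT 503 held 64.9 CPM of H2-Ab1, where the other WT libraries held 31.9 to 37.4. KI 528 held 1.60 CPM of Ciita, where the other KI libraries held 0 to 0.113. The summed B cell list was lowest among KI in KI 528 (159 CPM, next 171), while without Cd79b and Bank1 it was highest of the 8 libraries there (6.76 CPM, others 1.71 to 5.52). The summed astrocyte list was lowest among KI in KI 549 (319 CPM, next 380.0).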

How the results depend on the processing

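The edgeR quasi-likelihood test called 0 of 17291 genes (1347 at an unadjusted p under 0.05), DESeq2 called 139, or 1.27% of the 10921 genes to which it gave an adjusted p, the edgeR likelihood ratio test 42, limma-voom 0 and limma on log2(FPKM + 1) 1, the gene model Gm49203. None of these, and none of the fits that left out 1 library, called any of the 10 genes. DESeq2 gave Ciita no adjusted p. The lowest adjusted p of Cd86 over the alternatives was 0.252 (DESeq2) and the highest 0.873. Signs turned for H2-DMb1 with library totals (−0.00068) and for Ciita with limma-voom (−2.15). With 1 library left out, the log2 fold change ran from −0.12 to 1.35 for H2-Eb1, −0.0022 to 0.0687 for H2-DMa, −3.08 to 0.88 for Ciita and −0.022 to 0.165 for Cd80. H2-Aa, H2-Ab1, Cd74, H2-Oa and Cd86 kept a positive sign under all 15 alternatives. Of the 45 pairs, 3 passed with all libraries and 6 with group means removed, and the same numbers held among the 6 pairs of H2-Aa, H2-Ab1, H2-Eb1 and Cd74. With group means removed, values tied by their group mean were still shuffled over all 8 libraries. The p of that setting may thus be too small, and the 2 numbers are not from like tests. With 1 library left out 0 to 5 of the 45 pairs passed, 0 without KI 528 and 5 without WT 506 or KI 513. Of the 4 pairs of Cd86 with these genes, 0 passed in any setting. The cause was not tested. No paired analysis was made, because the labels name no batch and the mouse numbers do not pair the groups. Ciita had at most 72 reads in a library, so its values are the least precise of the 10 genes (SE 1.44).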
